A study of Mus musculus with 3 samples.

Results

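The genes described here are 46 lysosomal genes out of the 55536 annotated genes in the deposited gene tables. They were taken by name: 11 glycosidases, 5 sulfatases, 7 lipid enzymes and lipid carriers, 9 other luminal proteins, 11 membrane proteins and 3 transcription factors of the MiT/TFE family. The rule that names them uses no measured value, although it was written with earlier results of these data known. Symbols were those of GENCODE M21, and each of the 46 matched 1 gene identifier. Total RNA without ribosomal RNA, taken from the cytosolic fraction, was sequenced from bone marrow-derived macrophages of C57BL/6J mice, a primary cell obtained by culturing marrow. All cells had received lipid A, the part of bacterial lipopolysaccharide that Toll-like receptor 4 recognises, at 100 ng/ml for 50 min. There were 3 libraries of this 1 group, numbered 1 to 3, all with the same donor label; sex and age were not collected, and separate animals or cultures are not stated, so the spread between libraries may be technical. No unstimulated cells were analysed here, and no level below is a response to lipid A.

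Lysosomes are acidic organelles in which hydrolases break down material taken up from outside or delivered by autophagy, and in macrophages they are the end point of phagocytosis. Glycosidases and sulfatases take sugar chains apart residue by residue, lipid enzymes work with small carrier proteins that lift lipids out of membranes, and the limiting membrane holds heavily glycosylated proteins, transporters and channels. TFEB, TFE3 and MITF are known to bind E-box sequences in promoters of lysosomal genes, and their entry into the nucleus is controlled by phosphorylation at the lysosome surface. RNA levels therefore do not report the activity of these factors.

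Levels are given as TPM, the length-corrected share of a gene in all RNA of its library, scaled to the same total in each. Gene counts summed to 33044910, 36769402 and 36522216 in libraries 1, 2 and 3, and the 46 genes held between 4.62% and 5.30% of them. Nuclear protein-coding genes took 36.8%, 26.0% and 34.4% of TPM in libraries 1, 2 and 3. In the second deposited quantification they took 17.0%, 9.62% and 7.83%, lowest in library 3, so the order of libraries in raw TPM depends on the quantification. Levels are from the first unless the second is named. On the TPM scale of the first, 43 of the 46 genes were lowest in library 2. After rescaling to the same total over protein-coding genes, 10 were lowest in library 2 and 27 in library 3. The SD of a TPM value below includes this shift of a whole library, so library-to-library variation was tested on counts.

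All 46 genes were detected, meaning that no library held them below 1 TPM. Their median level was 50.2 TPM. The median over the 9116 detected nuclear protein-coding genes was 9.38 TPM. A level of 100 TPM or more in each library was reached by 15 of the 46 genes (32.6%) and by 410 of the 9116 (4.50%). The 46 genes together amounted to 6.11%, 5.90% and 5.55% of protein-coding TPM in libraries 1, 2 and 3, with Ifi30 counted although its transcripts are annotated as processed transcripts. Most of that was in Lyz2, at 1.97% ± 0.133 (SD, n = 3), and Psap, at 1.64% ± 0.239. The other 44 genes held 2.24% ± 0.165. In such bulk samples, fewer cells of a type and less RNA per cell cannot be told apart.

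**Figure D1:**
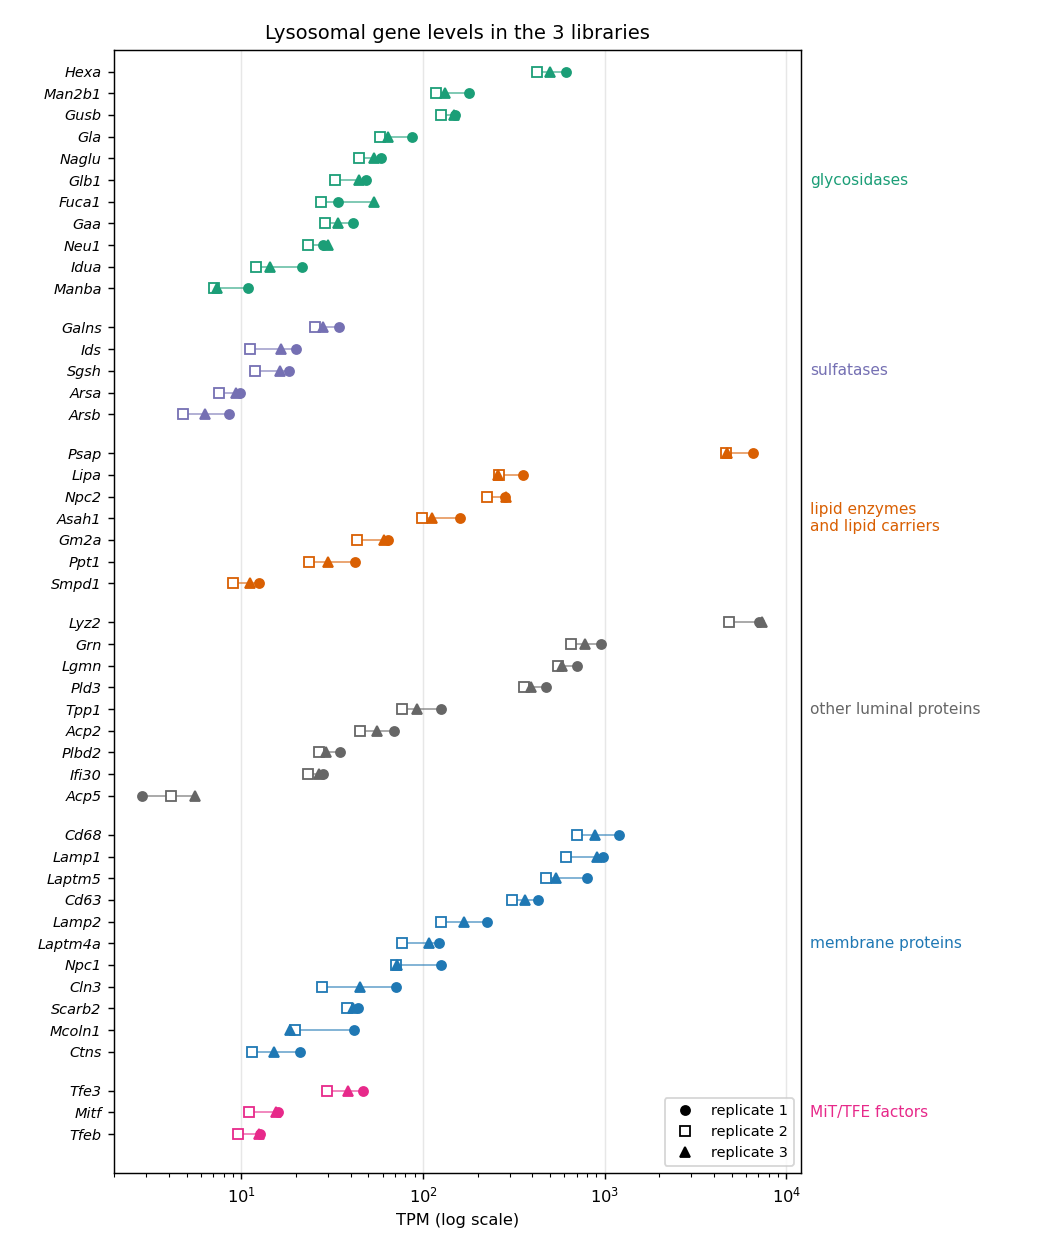
TPM of each of the 46 genes (log scale) in replicates 1 (filled circles), 2 (open squares) and 3 (triangles), grouped by class; a line joins the lowest and highest library of a gene. Lyz2 and Psap stand above all others, with 4627 TPM as their lowest value, and Acp5 is the lowest gene at 2.85 to 5.52 TPM.

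Among the glycosidases, the enzyme that acts on gangliosides was far above the rest. Hexa, the alpha subunit of beta-hexosaminidase A, stood at 616, 422 and 497 TPM in libraries 1, 2 and 3 (512 ± 97.7; ENSMUSG00000025232.8, mm10, chr9:59539540-59565109). It ranked 73rd among detected protein-coding genes. Man2b1, the lysosomal alpha-mannosidase, stood at 179, 118 and 132 TPM. Gusb, the beta-glucuronidase of heparan and dermatan sulfate breakdown, stood at 150, 125 and 148 TPM, so the ranges of Man2b1 and Gusb overlapped and their order was not resolved. The lowest glycosidase was Manba, the beta-mannosidase, at 10.8, 7.05 and 7.31 TPM. Hexa exceeded Manba 61.5-fold ± 5.83 within a library.

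The other 7 glycosidases lay between these levels. Gla, the alpha-galactosidase that clears globotriaosylceramide, averaged 70.0 ± 15.4 TPM, and Naglu, a heparan sulfate glucosaminidase, averaged 52.3 ± 7.22 TPM. Glb1, the acid beta-galactosidase, averaged 41.9 ± 8.24 TPM, Fuca1, the alpha-fucosidase, 38.3 ± 13.4 TPM, and Gaa, which degrades glycogen, 34.6 ± 6.11 TPM. The sialidase Neu1 averaged 27.1 ± 3.54 TPM and the alpha-iduronidase Idua 15.9 ± 4.89 TPM. From Glb1 down to Neu1 the ranges of neighbouring genes overlapped. Fuca1 stood at 34.1, 27.5 and 53.4 TPM in libraries 1, 2 and 3, and its short transcript is described with the transcripts below.

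Partners of the same enzyme complex were present at unequal RNA levels. Neu1 and Glb1 products are held in a complex by the protective protein Ctsa, which stood at 564, 378 and 405 TPM. Ctsa exceeded Glb1 10.8-fold ± 1.42 and Neu1 16.6-fold ± 3.34. These pairs were chosen after the levels had been seen, and the ratios are RNA ratios per length, not subunit ratios of protein.

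The sulfatases were low as a group, with a class median of 15.4 TPM and none at 100 TPM. Galns, which removes sulfate from keratan sulfate, was the highest at 34.5, 25.3 and 28.2 TPM. The iduronate sulfatase Ids followed at 20.0, 11.2 and 16.5 TPM, and the heparan sulfamidase Sgsh at 18.2, 11.9 and 16.2 TPM; their ranges overlapped. Arsa, which desulfates sulfatide, stood at 9.81, 7.57 and 9.35 TPM. Arsb, which acts on dermatan sulfate, was the lowest at 8.57, 4.78 and 6.31 TPM. Sumf1, the enzyme that activates all sulfatases, averaged 25.5 ± 3.71 TPM, a level within the range of the sulfatases themselves.

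The lipid class held the gene with the second highest level of the 46. Psap encodes prosaposin, the precursor of the saposins that present sphingolipids to their hydrolases. It stood at 6556, 4627 and 4707 TPM (5297 ± 1091; ENSMUSG00000004207.14, mm10, chr10:60277627-60302597) and ranked 4th among detected protein-coding genes. Lipa, the acid lipase that frees cholesterol from its esters, stood at 354, 261 and 260 TPM. Npc2, a soluble cholesterol carrier, stood at 284, 224 and 287 TPM, overlapping Lipa. The lowest was Smpd1, the acid sphingomyelinase, at 12.5, 8.96 and 11.2 TPM.

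Ceramide and ganglioside genes lay between Npc2 and Smpd1. The acid ceramidase Asah1 averaged 123 ± 31.6 TPM and exceeded Smpd1 11.3-fold ± 1.36 within a library. Gm2a, the activator that lifts ganglioside GM2 to beta-hexosaminidase A, averaged 56.3 ± 11.2 TPM, and Psap exceeded it 102-, 106- and 77.2-fold. Ppt1, which removes palmitate from proteins, averaged 31.9 ± 9.52 TPM.

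The other luminal proteins held both the highest and the lowest gene of the 46. Lyz2, the lysozyme of macrophages, stood at 7107, 4844 and 7296 TPM (6416 ± 1364; ENSMUSG00000069516.8, mm10, chr10:117277331-117282321). Its near-identical neighbour Lyz1 was listed at 2.72, 1.58 and 2.90 TPM, and the split of shared reads between the pair is uncertain. Grn, which encodes progranulin, stood at 954, 654 and 780 TPM, and the asparaginyl endopeptidase Lgmn stood at 699, 555 and 583 TPM. Acp5, the tartrate-resistant acid phosphatase known from osteoclasts, stood at 2.85, 4.12 and 5.52 TPM. The other acid phosphatase gene, Acp2, exceeded it 24.3-, 10.9- and 10.1-fold. Lyz2 and Psap, which were close in libraries 1 and 2 (ratios of 1.08 and 1.05), were at a ratio of 1.55 in library 3.

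Pld3, a nucleic acid exonuclease, averaged 410 ± 60.3 TPM and the tripeptidyl peptidase Tpp1 averaged 98.4 ± 24.9 TPM. Acp2 averaged 56.8 ± 12.1 TPM. The phospholipase B-like protein Plbd2 and the thiol reductase Ifi30, which unfolds antigens for presentation, averaged 30.4 ± 4.15 and 26.1 ± 2.65 TPM.

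Membrane proteins were led by the macrophage marker Cd68, a heavily glycosylated lysosomal protein, at 1201, 701 and 883 TPM. Lamp1, an abundant protein of the limiting membrane, stood at 976, 612 and 907 TPM, and its range overlapped that of Cd68. Laptm5, a membrane protein of blood cells, stood at 795, 473 and 539 TPM. The lowest was Ctns, the cystine exporter, at 21.1, 11.5 and 15.1 TPM, and Cd68 exceeded it 58.8-fold ± 2.09 within a library.

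Related membrane proteins were not at equal levels. Lamp1 exceeded its relative Lamp2, at 226, 126 and 167 TPM, 4.87-fold ± 0.552. Laptm5 exceeded Laptm4a, which is found in many tissues and averaged 103 ± 23.6 TPM, 5.87-fold ± 0.781. The tetraspanin Cd63 averaged 368 ± 60.4 TPM. Npc1 is the membrane transporter that takes cholesterol over from the Npc2 product. It stood at 126, 71.3 and 71.5 TPM, and the Npc2 to Npc1 ratio was 2.26, 3.14 and 4.02 in libraries 1, 2 and 3.

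Scarb2, the receptor that carries glucocerebrosidase to lysosomes, averaged 41.1 ± 3.04 TPM. Cln3, a membrane protein of Batten disease, stood at 71.2, 27.9 and 45.1 TPM. Mcoln1, the lysosomal calcium channel TRPML1, stood at 41.4, 19.7 and 18.4 TPM. For Cln3 and Mcoln1 the high TPM of library 1 moved with short transcripts, described with the transcripts below.

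Of the transcription factors, Tfe3 was the highest in every library. Tfe3 stood at 46.9, 29.8 and 38.8 TPM (ENSMUSG00000000134.17, mm10, chrX:7762560-7775202), Mitf at 15.9, 11.1 and 15.5 TPM and Tfeb at 12.6, 9.62 and 12.6 TPM. Tfe3 exceeded Tfeb 3.31-fold ± 0.366 and Mitf 2.72-fold ± 0.225, and Mitf was above Tfeb in every library. Their TPM ranges overlapped, while after rescaling to the same protein-coding total Mitf ran from 42.5 to 44.9 and Tfeb from 34.3 to 37.0 TPM. Tfec, the family member known from macrophages and not among the 46 genes, stood at 33.1, 23.0 and 41.4 TPM. The ratio of Tfe3 to Tfec was 1.42, 1.30 and 0.938, so their order changed between libraries. On the scale of protein-coding TPM the 3 factors varied little, with coefficients of variation (SD over mean) of 6.92% for Tfe3, 4.03% for Tfeb and 2.82% for Mitf, beside a median of 9.74% over detected protein-coding genes.

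The classes were compared by the median of log2(TPM + 1) in each library, with no test since genes are not replicates. The glycosidase median lay below that of the lipid class, with differences of -1.69, -1.57 and -1.05 in libraries 1, 2 and 3 (glycosidases minus lipid class, -1.44 ± 0.34). It lay below the membrane proteins in each library as well (-1.19 ± 0.18). Lipid and membrane classes were close, with differences of 0.34, 0.37 and 0.05 (0.25 ± 0.18) in favour of the lipid class. These 3 classes lay above the factors. Glycosidases exceeded the factors by 1.59 ± 0.13, membrane proteins by 2.77 ± 0.12 and the lipid class by 3.02 ± 0.24. Sulfatases and other luminal proteins were not compared in this way. The sulfatase median was 18.2, 11.2 and 16.2 TPM in libraries 1, 2 and 3, close to the 15.9, 11.1 and 15.5 TPM of the factors. That of the other luminal proteins was 126, 76.8 and 92.6 TPM. The ranges within classes were wide, and the factor Tfe3 stood above the glycosidases Gaa, Neu1, Idua and Manba in every library.

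No lysosomal gene was called as varying between the libraries beyond the trend of all genes. In the edgeR fit of counts, 203 of 12231 tested genes (1.66%) were called at an adjusted p under 0.05, and 0 of the 46 were. With the dispersion trend of DESeq2 the count was also 0, beside 1.55% of all tested genes. At an unadjusted p under 0.05, edgeR marked 3 of the 46 (6.52%), near the 6.42% of all tested genes. The DESeq2 trend marked 4 of the 46, beside 5.28% of all. A p above the threshold does not show equal levels. The median gene of the 46 spanned 0.26 log2 CPM (counts scaled to library size, on a log2 scale) from its lowest to its highest library. Beside this, the median span was 0.28 for all tested genes, 0.26 for tested protein-coding genes and 0.23 for detected protein-coding genes.

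The 3 genes with an unadjusted p under 0.05 in edgeR, a share near that of all tested genes, moved in different directions. Acp5 stood at 2.05, 2.99 and 3.10 log2 CPM (edgeR unadjusted p = 0.0116, adjusted p = 0.336), low in library 1. Mcoln1 stood at 5.99, 5.77 and 5.36 log2 CPM (edgeR adjusted p = 0.518) and Idua at 6.40, 6.00 and 5.85 (edgeR adjusted p = 0.733), both high in library 1 and low in library 3. The smallest spread was that of Smpd1, at 5.13, 5.12 and 5.04 log2 CPM. Gm2a, Glb1 and Naglu were nearly as even, with spans of 0.10, 0.10 and 0.11.

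Small shifts had a shared direction. Of the 46 genes, 29 (63.0%) had their highest log2 CPM in library 1, 13 in library 2 and 4 in library 3; over all tested genes the highest library was library 1 for 36.8%. The lowest value was in library 3 for 28 of the 46 (60.9%) and for 29.8% of all tested genes. The median deviation of the 46 genes from their own mean was 0.09 in library 1 and -0.11 in library 3. Among membrane proteins 9 of 11 were highest in library 1, with a median deviation of 0.21, and none was highest in library 3. The summed TPM of 28 markers of other cell types was also highest in library 1 and lowest in library 3, at 10.9, 6.81 and 3.77, most of it the granulocyte gene Ngp. The nuclear RNA Malat1 had 71174, 187436 and 40010 counts in libraries 1, 2 and 3, highest in library 2. Neat1, at 6988, 20346 and 6291 counts, and Xist, at 1930, 6017 and 3106, were highest in library 2 as well. These nuclear RNAs were called as varying (edgeR adjusted p = 3.91e-09 for Malat1, 7.00e-09 for Neat1 and 3.49e-08 for Xist). The part of these markers and nuclear RNAs in the shifts was not tested.

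**Figure D2:**
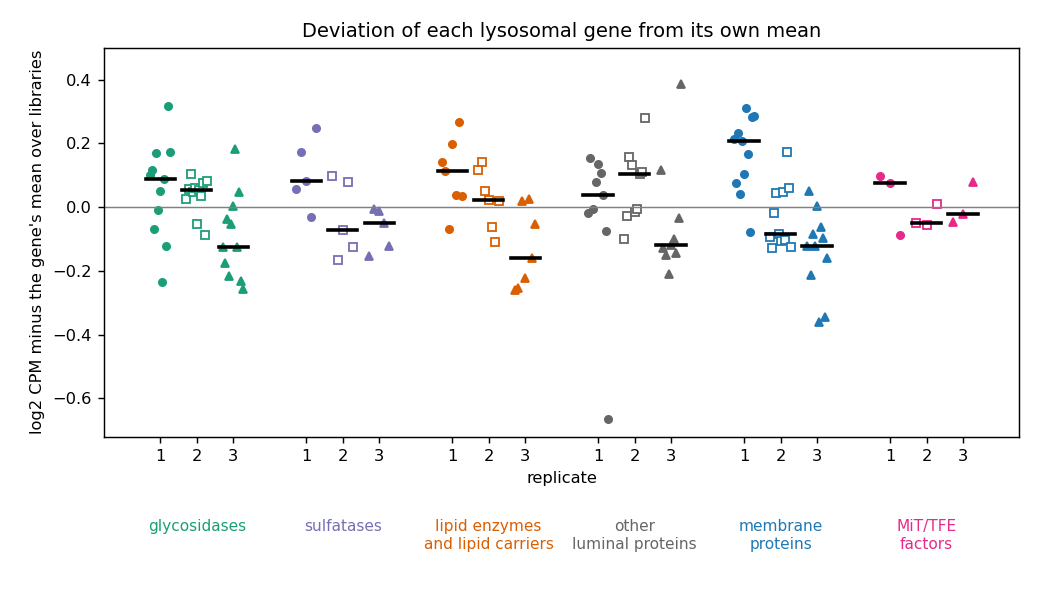
Log2 CPM of each gene minus its mean over the 3 libraries, by class and replicate; points are genes and black bars class medians. In every class the median is above 0 in replicate 1 and below 0 in replicate 3, and the lowest point in replicate 1 is Acp5.

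Transcript shares, the percentage of a gene's TPM in each annotated transcript, showed which forms of these proteins the RNA could encode. The 46 genes had 255 annotated transcripts, and for 24 genes 1 transcript held 90% or more on average. Both deposited quantifications gave the same leading transcript for 44 of the 46. Each share is an estimate from short reads, and the pair of quantifications shows how far it can be trusted.

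Lamp2 was split evenly between transcripts with different membrane ends. Lamp2-201 held 53.0%, 44.6% and 50.6% of TPM in libraries 1, 2 and 3, and Lamp2-202 held 46.5%, 54.4% and 48.8%. The second quantification gave 52.7% ± 3.15 and 46.5% ± 2.88. Both coding sequences are 1245 bases long and share the first 1109 bases. They then run into different last exons, which encode the transmembrane segment and the cytosolic tail. Lamp2-201 encodes the end known as LAMP-2A, the receptor of chaperone-mediated autophagy, and Lamp2-202 the end known as LAMP-2B. The form Lamp2-203, known as LAMP-2C, held under 1% in both quantifications. The last 36 coding bases before the stop codon (GENCODE M21, mm10, minus strand) lie past the point where the sequences part and show how the tails differ. The codons of the final 5 residues, which carry the tyrosine-based sorting signal, are in capitals.
Lamp2-201, chrX:38405435-38405470: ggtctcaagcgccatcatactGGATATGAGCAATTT
Lamp2-202, chrX:38421715-38421750: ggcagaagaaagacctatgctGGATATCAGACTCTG
Lamp2-203, chrX:38402142-38402177: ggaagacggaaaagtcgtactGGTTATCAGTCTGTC

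Psap was read almost wholly without its small exon. Transcripts lacking the 9 extra bases in the saposin B part held 94.6%, 97.4% and 97.3% of Psap TPM, Psap-205, with all 9 bases, held 2.12% ± 0.646, and Psap-201, with 6 extra bases, held 1.16% ± 0.844. In the second quantification the share without the bases was 96.3%. The coding bases around the exon (GENCODE M21, mm10, plus strand, chr10:60295981-60299123, introns removed) are shown with the 9 bases in capitals. A stretch of the same length that begins slightly earlier would give the same sequence, so the capitals mark a possible placement.
Psap-205, with the bases: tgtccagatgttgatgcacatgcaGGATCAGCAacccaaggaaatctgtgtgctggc
Psap-202, without: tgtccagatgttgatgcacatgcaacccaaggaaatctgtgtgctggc

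Both main Psap transcripts lack the exon and differ at the start of the protein. Psap-202 held 46.6%, 64.1% and 47.6% of TPM and Psap-203 held 47.9%, 33.4% and 49.7%. Their annotated starts lie 6834 bases apart and their coding sequences, of 1662 and 1653 bases, share the last 1622. Library 2 stood apart in both quantifications, with 73.0% for Psap-202 in the second.

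Legumain RNA came from annotated starts 16044 bases apart. Lgmn-201 held 34.0%, 54.4% and 59.8% and Lgmn-202 held 65.8%, 45.4% and 40.0% in libraries 1, 2 and 3. The second quantification gave 39.4%, 71.8% and 68.8% for Lgmn-201. Library 1 was the only library in which Lgmn-202 was above Lgmn-201 in both quantifications. The coding sequences of the pair are identical, so the protein would be the same. Gaa-201 and Gaa-203, and Acp5-201 and Acp5-202, were likewise pairs with identical coding sequences.

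Some lysosomal RNA was assigned to transcripts annotated as retaining an intron. For Arsa the share was 64.3%, 63.6% and 65.5%, and 61.5% ± 3.55 in the second quantification. For Plbd2 it was 30.2% ± 1.60, and 47.5% ± 5.37 in the second. For Npc1 it was 37.4% ± 3.84 in the first but 10.2% ± 6.55 in the second, so its size depends on the quantification. Of the 27 genes with such a transcript, these 3 were over 10% in the first quantification, with a median of 1.02%. In the second, 7 were over 10%, the others being Acp2 (21.6%), Asah1 (18.7%), Tpp1 (18.0%) and Cln3 (11.3%), with a median of 1.43%. The annotation class is a label of the transcript and does not show that an intron was read.

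The factors were expressed as several forms. Tfeb-202 held 46.3%, 50.5% and 58.3% and Tfeb-212, which starts 49125 bases further on and has a coding sequence of 1002 bases in place of 1425, held 53.7%, 47.2% and 38.0%. The second quantification put Tfeb-212 at 25.0% ± 7.74. Tfe3 was spread over many transcripts, with 32.1% ± 14.5 in Tfe3-204 and 29.1% ± 12.6 in Tfe3-205, which lacks 105 coding bases of Tfe3-204. The second quantification gave 33.8% ± 11.8 and 16.2% ± 8.22. Mitf-202 led its gene at 78.9% ± 5.34, and 68.1% ± 5.72 in the second quantification.

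For Cln3, Mcoln1 and Fuca1, TPM in the first quantification moved between libraries together with the share of a short transcript. Cln3-214, a noncoding transcript of 537 bases, held 40.1% of Cln3 TPM in library 1, 5.93% in library 2 and 2.20% in library 3, and 28.6%, 3.61% and 0 in the second quantification. Mcoln1-204, of 363 bases, held 30.8% of Mcoln1 TPM in library 1 and was listed at 0 in libraries 2 and 3, while the second quantification gave 41.0%, 9.06% and 0. In log2 CPM Cln3 spanned 0.27 between libraries, so its TPM and its counts differ in how far library 1 stands out. Fuca1-205, a noncoding transcript of 401 bases, held 14.3%, 4.65% and 27.4% of Fuca1 TPM in libraries 1, 2 and 3. In the second quantification it held 44.7%, 30.9% and 34.5%, highest in library 1. Fuca1 stood at 6.44, 6.73 and 6.86 log2 CPM, so its counts were also highest in library 3. Asah1-203, a retained-intron transcript, held 17.1%, 0.111% and 0.341% of Asah1 TPM in the first quantification and 33.6%, 7.83% and 14.4% in the second. Idua-203, which lacks 141 coding bases of Idua-202, held 24.0% ± 8.17 in the first quantification but 3.52% ± 5.84 in the second.

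**Figure D3:**
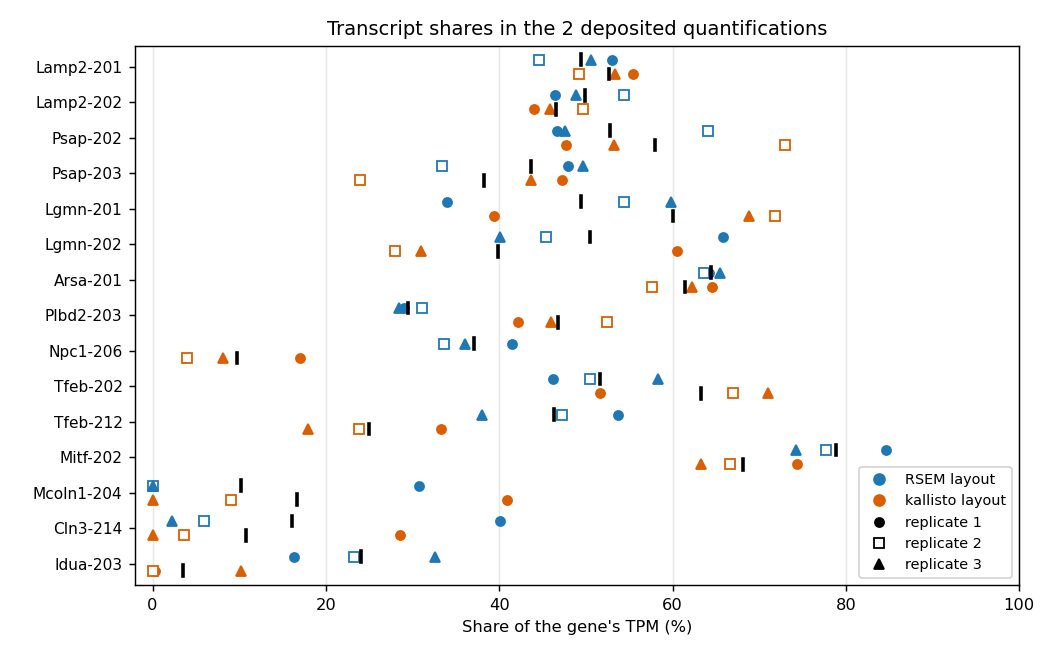
Share of a gene's TPM (%) in 15 named transcripts in the first (RSEM layout, blue) and second (kallisto layout, orange) quantification; symbols are replicates and black ticks means over the 3 libraries. Lamp2-201 and Lamp2-202 lie near 50% in both, while Npc1-206, Tfeb-212 and Idua-203 are lower in the second.

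Promoter sequence was examined for the E-box hexamer CACGTG, the core of the site known for the MiT/TFE factors. RefSeq promoter windows (GRCm38.p6, 250 bases before to 50 after each start) were found for 42 of the 46 genes; Galns, Asah1, Npc1 and Plbd2 were not matched. The hexamer, which reads the same on both strands, was in a window of 11 of the 42 genes (26.2%). It was in a window of 8.09% of the 27025 genes of the table and of 12.9% of the 7319 detected protein-coding genes matched. With TCACGTG on either strand, a longer form that contains the hexamer, the count was the same 11 genes, beside 4.29% of all genes and 7.92% of detected ones. The palindrome TCACGTGA, which contains both, was in 4 genes, Cln3, Gla, Ifi30 and Mcoln1 (9.52%, beside 1.12% of all genes and 2.61% of detected ones). Detected genes are the closer reference here, and no test was made.

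The genes with the hexamer are listed by class, and counts this small do not show whether the classes differ. Glycosidases with it were Gaa, Gla, Glb1 and Naglu, sulfatases were Arsa and Sgsh, other luminal genes were Ifi30 and Lgmn, and membrane genes were Cln3, Lamp1 and Mcoln1. None of the 6 lipid genes and none of the 3 factor genes with a window held it, which says only that these letters are not in these windows. The 11 genes held 17 hexamers, 11 of them within 80 bases before the start. Lamp1 held 4, and Cln3, Gla and Mcoln1 held 2 each. Genes with the hexamer had a median level of 41.9 TPM, from 8.91 to 832, and the 31 without it 56.8 TPM, from 4.16 to 6416, so the ranges overlapped widely.

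The windows of 5 genes are shown, with 4, 2 or 1 of their matches, cut to 80 bases that lie outside the annotated exons of the gene (RefSeq, GRCm38.p6, the strand of the gene), with the hexamer in capitals. Lamp1 carries all of its 4 matches within 61 bases of the start, and its transcript Lamp1-201, which starts within 100 bases of the RefSeq start, held 99.9% of Lamp1 TPM. The second match of Mcoln1, 45 bases before the start, lies outside the 80 bases shown.
Lamp1, chr8:13159081-13159160, plus strand: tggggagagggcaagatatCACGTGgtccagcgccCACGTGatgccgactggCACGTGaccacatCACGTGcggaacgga
Mcoln1, chr8:3500377-3500456, plus strand: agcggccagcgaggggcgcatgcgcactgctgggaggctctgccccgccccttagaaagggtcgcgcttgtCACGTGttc
Gla, chrX:134601163-134601242, minus strand: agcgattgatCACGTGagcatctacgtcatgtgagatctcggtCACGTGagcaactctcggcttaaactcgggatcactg
Glb1, chr9:114400996-114401075, plus strand: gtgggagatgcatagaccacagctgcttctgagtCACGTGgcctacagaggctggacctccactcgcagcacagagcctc
Gaa, chr11:119267807-119267886, plus strand: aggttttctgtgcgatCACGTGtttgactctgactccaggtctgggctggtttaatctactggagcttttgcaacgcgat

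Where a gene had several starts, the hexamer did not always lie at the start to which most TPM was assigned. For Glb1, Ifi30 and Sgsh all TPM was in transcripts that start within 100 bases of the RefSeq start of the window, and for Gaa it was 99.0%. For Cln3 the share was 28.5% ± 5.68 and for Arsa 30.6% ± 2.00. For Mcoln1 it was 86.0% ± 6.72. For Lgmn and Gla no annotated transcript started within 100 bases of the RefSeq start, and Gla-201 starts farther upstream, nearer to the Gla hexamers.

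**Figure D4:**
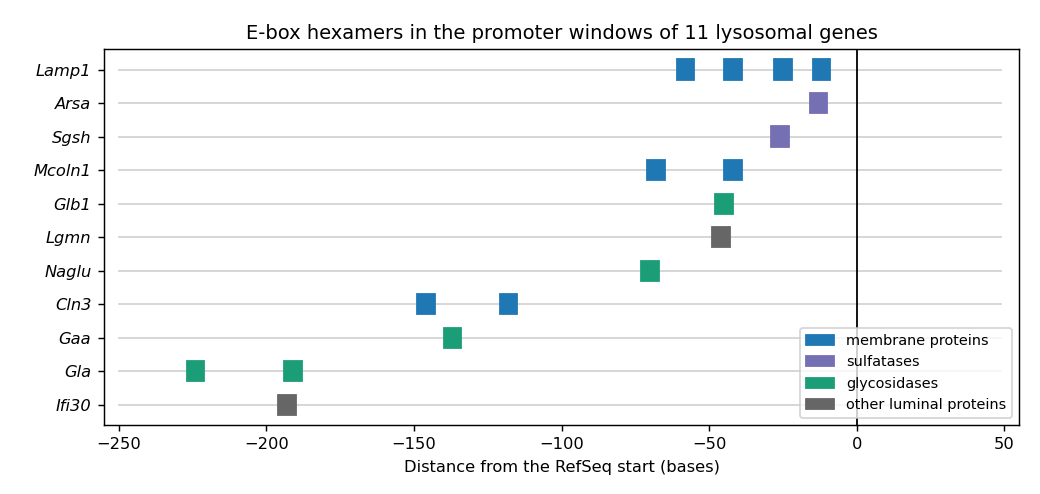
Position of each CACGTG hexamer (coloured boxes, drawn to scale) in the promoter windows of the 11 genes that hold it, as distance in bases from the RefSeq start at 0; colours give the class. The 4 boxes of Lamp1 lie within 61 bases of the start, and those of Gla and Ifi30 lie farthest away, at up to 227 bases.

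Other genes of the lysosome, in 4 lists, had lower levels on the median. Other hydrolases and cofactors (19 genes) had a median of 38.7 TPM and were led by Ctsa. Other membrane proteins and transporters (25 genes) had a median of 22.7 TPM and were led by Slc15a3, a peptide transporter, at 221, 152 and 160 TPM. Genes that sort enzymes to the lysosome (17 genes) had a median of 18.1 TPM and were led by M6pr, a mannose phosphate receptor, at 101, 75.0 and 87.7 TPM. Genes that control or resemble the MiT/TFE factors (12 genes) had a median of 26.9 TPM and were led by Fnip2, a partner of folliculin, at 128, 71.9 and 112 TPM. Of these 73 genes 72 were detected, and Abcb9, a peptide transporter, averaged 0.630 TPM. The edgeR fit called 0 of the 73, beside 1.66% of all tested genes, with 2 at an unadjusted p under 0.05, beside 6.42%. Without library 1 it called 1, Tpcn2, a lysosomal cation channel (edgeR adjusted p = 0.0407, and 0.444 with all libraries). The hexamer CACGTG was in a window of 16 of the 56 genes matched (28.6%), and TCACGTGA in 12 (21.4%).

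Marker genes fitted the labelled cell type. All 7 macrophage markers, among them Adgre1 and Mertk, stood between 22.3 and 612 TPM. Of 28 markers of 7 other cell types, 1 reached 1 TPM in each library, the granule gene Ngp of granulocytes at 7.25, 4.03 and 2.58 TPM, and their summed level ran from 3.77 to 10.9 TPM. Of 7 osteoclast markers, listed because of Acp5, Calcr and Oscar had a count of 0 in each library and the summed level was 19.5, 13.5 and 17.9 TPM, most of it Nfatc1, which macrophages also express. Their part in the level of Acp5 was not tested.

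Counting of shared bases limits a few values. The strand setting is not given in the sources used here, and 19 of the 46 genes overlap another annotated gene. For 7 of them the overlapping gene had over 5% of their count: Ppt1 (Cap1), Cln3 (Apobr), Galns (Gm20388), Idua (Dgkq), Arsb (Gm26527), Glb1 (Tmppe) and Npc1 (Rmc1). The levels of these 7 genes are uncertain to the extent that reads were split between partners, most for Ppt1 and Cln3, whose partners averaged 16153 and 4164 counts beside their own 3440 and 2398.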

How the data were processed

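For each library the authors deposited expected counts and TPM per gene and per transcript in a table of RSEM layout, and estimated counts and TPM per transcript in a table of kallisto layout, here the first and second quantification. Genome mm10 and annotation GENCODE M21 are given per the labels and the deposited notes; for the programs, versions and strand setting: not given in the sources used here. The second table was summed per gene. The 26248 rows identified by a number alone, which hold no counts, and 97 spike-in and phiX174 rows were left out.

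Expected counts were rounded and fitted with edgeR 4.0.16 (R 4.3.3): filterByExpr, TMM, trended dispersion, an intercept only, and a chi-square goodness of fit per gene, Benjamini-Hochberg adjusted over 12231 genes at 0.05. The step was also run on simulated counts drawn from its own fitted trend. The shifts placed in them exceeded the median span of the lysosomal genes, so smaller shifts were not covered. Log2 CPM carry a prior count of 0.5, and class medians a pseudocount of 1 TPM. DESeq2 1.42.0 gave the alternative dispersion trend; Python 3.11.15 and pandas 2.3.3 did the rest. Replicate SDs are over 3 libraries; the number of libraries limits the precision, and counting error is not included separately.

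Named in full are the 3 highest and the lowest gene of each class, every called gene and the 3 factors; of the other lists, the highest. Members, lists and pairs were chosen with earlier results of these data known. A ratio that involves a withheld item is not reported here.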

Additional observations from a re-analysis of the deposited data

How the results depend on the processing

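The 46 genes gave 0 calls in each of the 8 alternatives of the edgeR fit, and the smallest adjusted p over 368 combinations of gene and alternative was 0.112, for Acp5 with a common dispersion. Over all tested genes, leaving out library 1, 2 or 3 gave 132 of 12511, 91 of 12333 or 89 of 12419 calls in place of 203 of 12231. The calls were 203 of 12231 with RLE size factors, 189 of 12231 with the DESeq2 trend and 298 of 12231 with a common dispersion. Without the filter they were 221 of 20709, and with counts of the second quantification 200 of 13372. At such low shares, 0 calls among 46 genes does not set these genes apart. For the other lysosomal genes, the count was 1 without library 1 and 0 without library 2 or 3, beside 0 with all. The median differences of classes kept their direction under every alternative run. With TPM of the second quantification they moved by more than the SD between libraries for the lipid class minus membrane proteins (0.45), glycosidases minus factors (1.45) and membrane proteins minus factors (2.53); the cause was not tested. The median of the 46 genes, 52.0 TPM as a mean over libraries, was 159.9 after rescaling over protein-coding genes and 161.9 in the second quantification rescaled the same way, a change of unit. For 39 of the 46 genes the second quantification was within 10% of the first after rescaling, with extremes of 0.801 for Npc1 and 1.34 for Fuca1. No paired analysis was possible because there is only 1 group.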
